A study of Mus musculus with 10 samples.

Results

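Transcript levels of 35 genes of the endoplasmic reticulum (ER) folding machinery and the unfolded protein response were compared between sorted luminal and basal cells of the mouse mammary gland. The genes were taken from a list by name, with no threshold on their values. That list was chosen with earlier results of these data known, so comparisons with all genes are a description. The genes were matched by NCBI Entrez identifier to rows of the gene count table, which holds 24594 genes. They were treated as 3 arms, with 16 genes of ATF6 and the ER chaperones, 11 genes of XBP1 and ER-associated degradation, and 8 genes of PERK and ATF4. Of these 35 genes, 31 were higher in basal cells, 1 (Ern1) was higher in luminal cells and 3 (Atf6b, Xbp1 and Sec61b) did not pass the test, whereas 31.2% of all genes tested were higher in basal and 33.6% in luminal cells.

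The ER is where secreted and membrane proteins are folded. Unfolded protein in its lumen is sensed by ATF6, IRE1 (the product of Ern1) and PERK (the product of Eif2ak3). ATF6 is cut in the Golgi to release a transcription factor that acts on chaperone genes. IRE1 splices the Xbp1 transcript, so that it encodes an active factor for genes of ER-associated degradation. PERK phosphorylates the translation factor eIF2 alpha, which lowers general protein synthesis while ATF4 is still translated, and ATF4 raises genes of amino acid supply and of the feedback on eIF2 alpha. Other kinases that act on eIF2 alpha also feed into ATF4, which is why its targets are known as the integrated stress response. In the mammary gland, a large secretory load is known chiefly from the luminal alveolar cells of lactation, whereas basal (myoepithelial) cells contract and contribute basement membrane proteins.

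Both groups were wild type C57BL/6J mice with no treatment given in the labels, which give no age or reproductive state. The study's methods give an age range in weeks for its experimental mice in general, without naming these libraries. The tissue had been digested with enzymes, and the study describes removal of cells carrying TER-119, CD31 or CD45 and sorting on EpCAM and CD49f. There were 5 luminal and 5 basal libraries, with 13203146 to 17998165 counts each and 16840 to 17842 genes with at least 1 count. The cell type label was used for grouping, although in all 10 libraries the title of the sample gives the other cell type. All 9 luminal markers were higher in the luminal group and all 7 basal markers in the basal group, with median log2 fold changes of 4.99 and -7.95. The 7 basal markers summed to 26.5 to 78.9 CPM (counts scaled to a common library size) in luminal and to 10400 to 14900 CPM in basal libraries. The 9 luminal markers summed to 10000 to 14500 CPM in luminal and to 1360 to 1760 CPM in basal libraries. Most of the latter was Krt8, Krt18 and Epcam (means of 510, 541 and 344 CPM), whereas Prlr, Elf5 and Kit had basal means of 0.993, 0.165 and 1.19 CPM and luminal means of 1190, 92.0 and 182 CPM. The study's methods call its RNA sequencing replicates biological, but describe fewer per condition than the libraries here. The labels do not say that the libraries came from separate animals, so p-values measure the spread between libraries, which may be technical. In such bulk samples a lower level can mean fewer cells of a type or less RNA per cell, and these cannot be told apart.

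Matches to known response elements in the RefSeq promoter windows of the 35 genes are given first. The arms are named after factors known to act on such elements, but their genes were assigned by list and not by motif. Windows of assembly GRCm38.p6, from 250 bases before to 50 bases after the gene start, were found for 31 of the 35 genes. Atf6, Hyou1, Manf and Derl1 had none. Of 32 windows, 29 had their last 25 bases in an annotated transcript of the gene on its strand. In the rest, positions relative to the start are less certain. Both strands were searched for 5 motifs, whose letters were chosen from general knowledge after the values had been seen. The ER stress response element (ERSE, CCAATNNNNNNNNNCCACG), a known site of NF-Y with ATF6 or XBP1, was found in 9 of the 31 genes (29.0%) and in 37 of 27025 genes with a window (0.137%). The shorter ERSE-II (ATTGGNCCACG) was found in 2 of the 31 (6.45%) and in 12 of all genes (0.0444%). The 9 genes with an ERSE were Hspa5, Hsp90b1, Dnajc3, Creld2, Calr, Canx, Pdia6, Syvn1 and Derl3, and Hsp90b1 held 2 matches. To show how alike these matches are, they are printed 5′ to 3′ on the strand of the motif, with the fixed letters of the motif in capitals.
Hspa5: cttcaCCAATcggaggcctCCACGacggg
Hsp90b1, upstream match: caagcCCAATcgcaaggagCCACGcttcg
Hsp90b1, downstream match: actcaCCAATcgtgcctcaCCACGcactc
Dnajc3: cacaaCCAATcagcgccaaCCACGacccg
Creld2: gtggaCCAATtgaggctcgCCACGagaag
Calr: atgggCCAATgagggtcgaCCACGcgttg
Canx: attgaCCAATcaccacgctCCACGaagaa
Pdia6: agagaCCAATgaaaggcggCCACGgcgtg
Syvn1: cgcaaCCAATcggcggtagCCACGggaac
Derl3: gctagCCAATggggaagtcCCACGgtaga
The 2 genes with an ERSE-II were Dnajb11 and Herpud1.
Dnajb11: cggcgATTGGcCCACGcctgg
Herpud1: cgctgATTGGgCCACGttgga

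The Hspa5 match lay 65 to 47 bases before the gene start, at chr2:34772025-34772043 on the plus strand, and that of Syvn1 44 to 26 bases before its start, at chr19:6046532-6046550. The Derl3 match, on the strand opposite to the gene, lay at chr10:75893242-75893260, and the Creld2 match, also opposite, at chr15:88819520-88819538. The ERSE matches lay upstream of the start in all 9 genes, whereas the ERSE-II of Dnajb11 lay 8 to 18 bases after the start, in the first exon. Hspa5 encodes BiP, the main ER chaperone of the Hsp70 family, and spans chr2:34772090-34776529. The 250 bases before its start are shown whole, with the fixed letters of the ERSE in capitals, to give the setting of that match.
Hspa5, chr2:34771840-34772089, plus strand: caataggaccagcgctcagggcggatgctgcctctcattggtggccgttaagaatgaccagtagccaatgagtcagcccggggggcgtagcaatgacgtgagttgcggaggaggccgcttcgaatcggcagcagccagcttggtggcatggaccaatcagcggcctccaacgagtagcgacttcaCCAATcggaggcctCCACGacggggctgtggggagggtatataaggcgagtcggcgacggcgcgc

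The C/EBP-ATF response element (CARE, TGATGNAA), a known site of ATF4 dimers, was found in Herpud1, Trib3, Chac1 and Asns, that is in 4 of the 31 genes (12.9%) and in 1219 of all 27025 genes (4.51%). These 4 matches are printed in the same way.
Asns: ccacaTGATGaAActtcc
Trib3: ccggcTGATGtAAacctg
Chac1: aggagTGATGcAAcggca
Herpud1: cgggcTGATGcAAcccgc
The Asns match lay 23 to 16 bases before the start, at chr6:7693225-7693232, with the gene on the minus strand. The Chac1 match lay 193 to 186 bases before the start, at chr2:119351049-119351056, on the strand opposite to the gene. The cAMP response element (CRE, TGACGTCA) was found 12 to 5 bases before the start of Ppp1r15a and in 2.03% of all genes. The core of the unfolded protein response element (UPRE, TGACGTGG), a known XBP1 site, was in 0 of the 31 windows and in 0.714% of all genes. A match is a run of letters, not a measured binding site, and a window without one says nothing of the factor. None of the matches in these genes overlapped another.

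**Figure D1:**
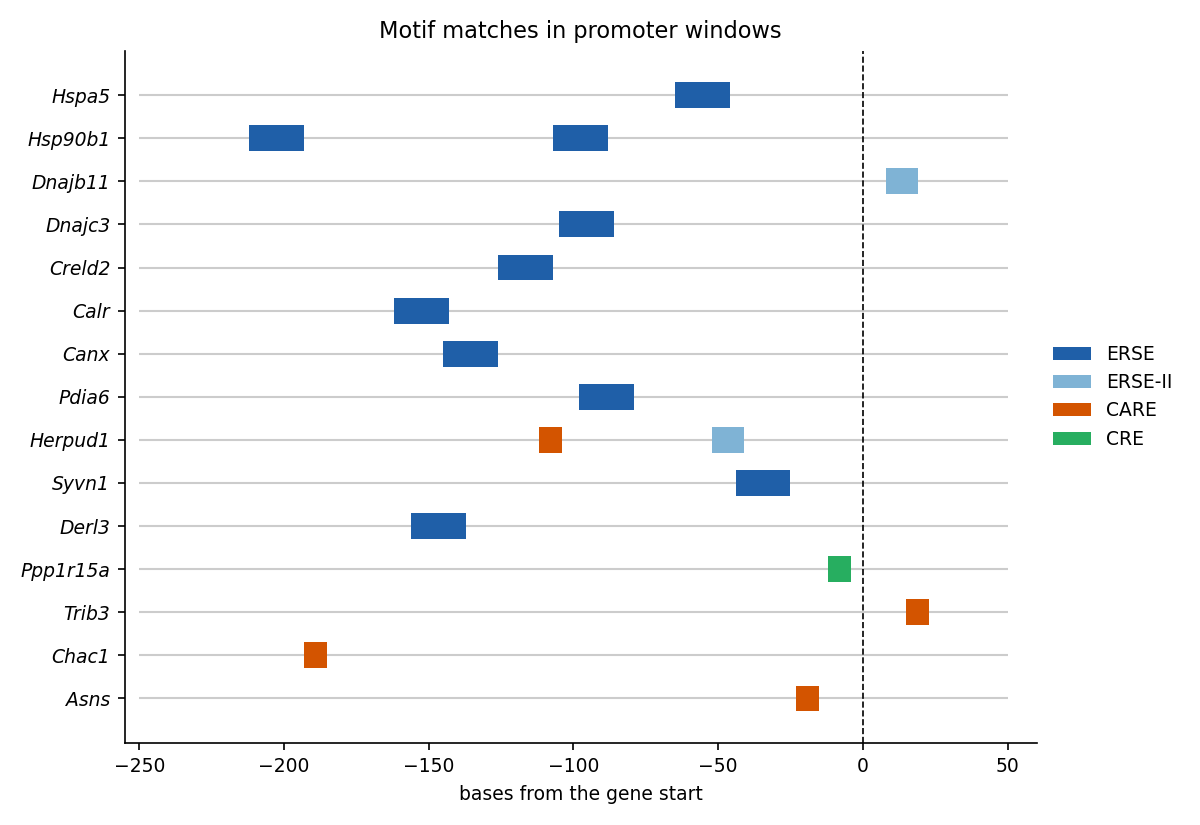
Position of each motif match relative to the gene start (horizontal axis, bases, 0 at the dashed line) in the 15 genes with a match to ERSE, ERSE-II, CARE or CRE. Grey lines are the windows from 250 bases before to 50 bases after the start, and coloured bars are matches drawn to scale. The ERSE bars all lie left of the start, and the CARE bars of Chac1 and Trib3 lie at opposite ends of the window.

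Levels are given in CPM on TMM-scaled library totals, and each log2 fold change is luminal against basal, so that a negative value is higher in basal cells. Adjusted p-values are from edgeR's quasi-likelihood test with Benjamini-Hochberg adjustment over the 14609 genes tested, and genes under 0.05 are called. All 35 genes were tested. The 31 called higher in basal cells compare with 31.2% of all genes tested, and the 1 called higher in luminal cells with 33.6%. With a further limit of at least 2-fold, 29 were higher in basal cells, against 19.1% of all genes tested, and 1 in luminal cells, against 20.9%. In 31 genes every luminal library lay below every basal library, as did 25.3% of all genes tested. In 1 gene every luminal library lay above every basal library, as did 24.7% of all genes tested. The median log2 fold change was -1.63 over the 35 genes and 0.05 over all genes tested. The 35 genes together took 0.935% to 1.32% of the counts of a luminal library (median 1.13%) and 2.88% to 4.25% of a basal library (median 3.28%).

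**Figure D2:**
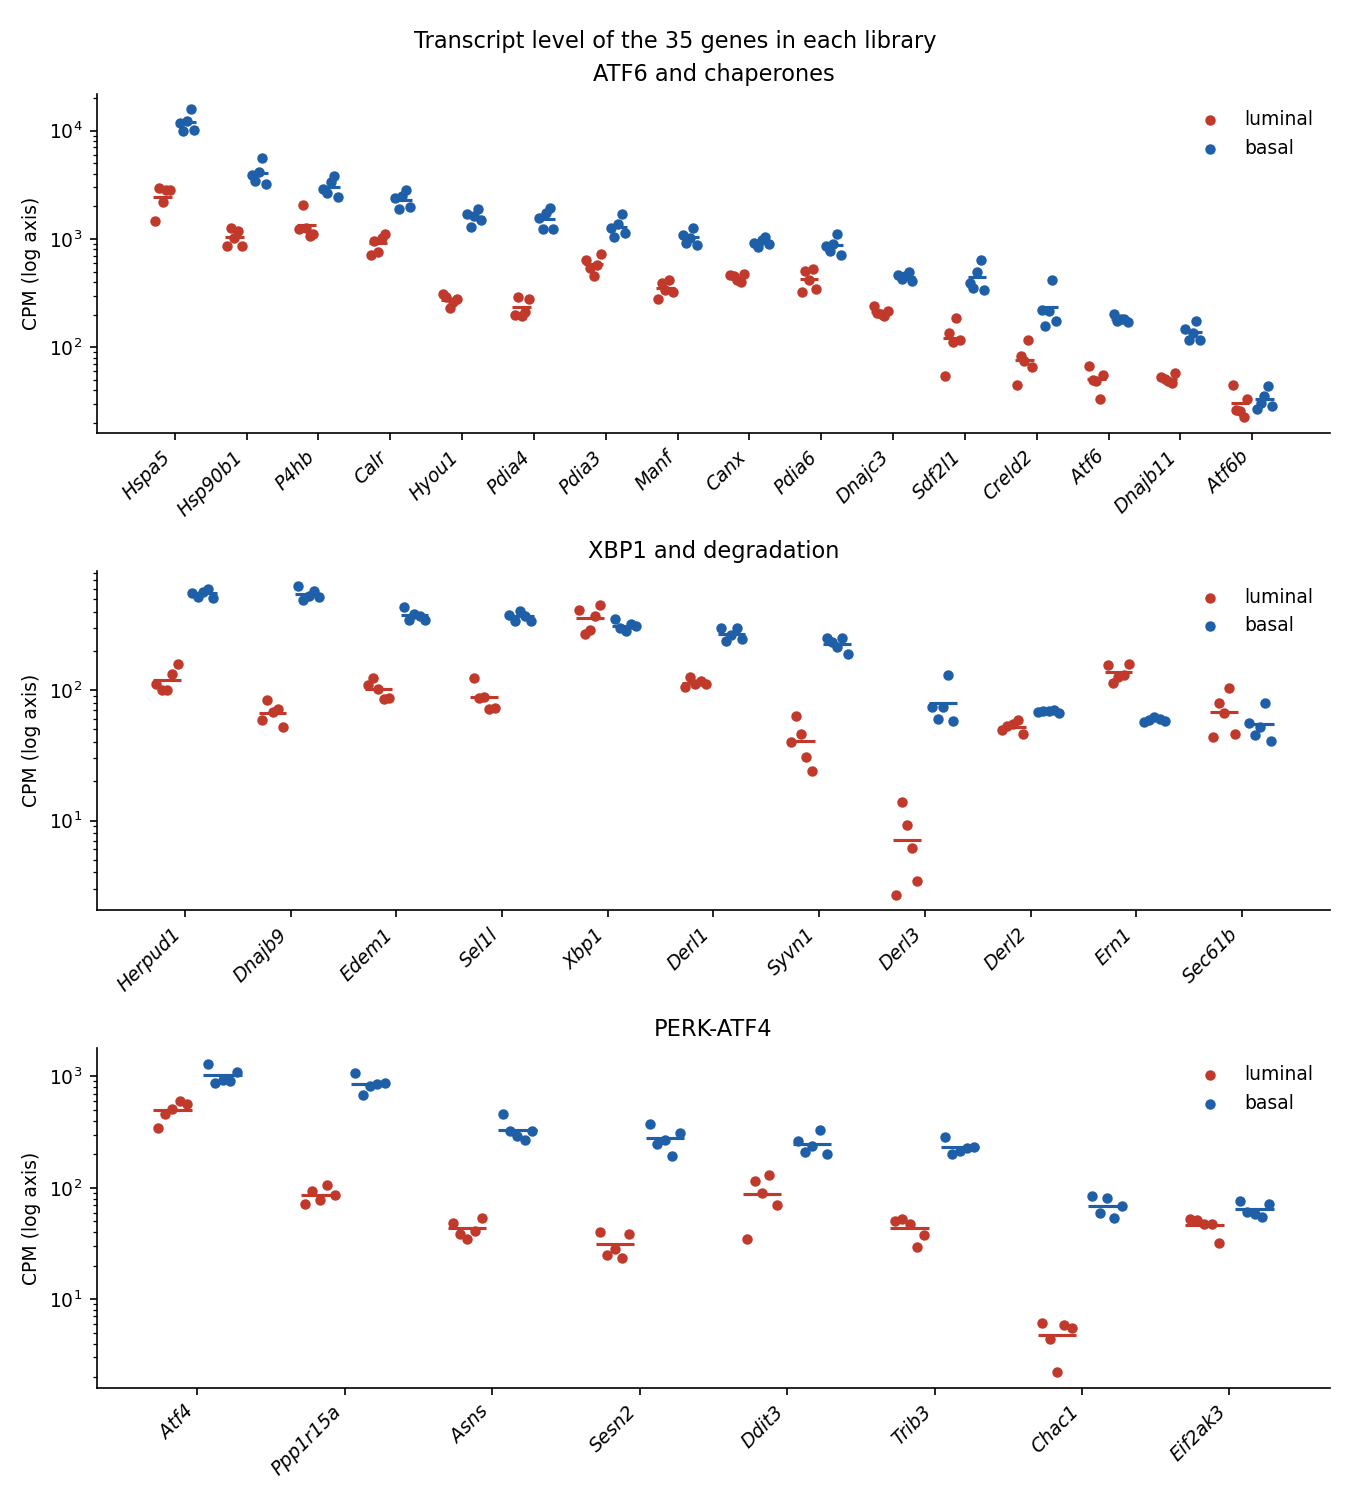
Level of each of the 35 genes in each library, in CPM on a log axis, by arm and ordered by basal mean. Points are libraries (5 luminal, 5 basal) and horizontal bars are group means. The basal points lie above the luminal points except for Ern1, where they lie below, and for Atf6b, Xbp1 and Sec61b, where they overlap.

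The arm of ATF6 and the ER chaperones was higher in basal cells. Of its 16 genes, 15 were called higher in basal cells, all 15 by at least 2-fold, and 1 (Atf6b) was not called. Of all genes tested, 31.2% were called higher in basal cells, and 19.1% with the 2-fold limit. The median log2 fold change of the arm was -1.50. Together the 16 genes took 0.739% to 1.11% of luminal and 2.38% to 3.68% of basal counts, with no overlap between the groups.

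The sensor Atf6 itself was at 67.7, 49.4, 48.5, 33.4 and 55.1 CPM in luminal replicates 1 to 5 and at 200.9, 175.6, 182.6, 180.7 and 171.3 CPM in basal replicates 1 to 5. The lowest basal library lay above the highest luminal library, and Atf6 had a log2 fold change of -1.84 (SE 0.17, adjusted p = 2.84e-07). Its paralogue Atf6b, which encodes a related membrane-bound factor, was at 44.9, 26.3, 25.8, 22.5 and 33.2 CPM in luminal and at 26.7, 30.3, 35.3, 43.8 and 29.0 CPM in basal replicates 1 to 5. These groups overlapped across most of their range. Its log2 fold change was -0.11 (SE 0.20, adjusted p = 0.649), and its sign changed with the scaling.

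Hspa5 (BiP) was at 1476, 2966, 2203, 2828 and 2845 CPM in luminal and at 11720, 9989, 12370, 15890 and 10250 CPM in basal replicates 1 to 5. Its luminal mean was 2464 ± 627 CPM (SD, n = 5) and its basal mean 12040 ± 2368 CPM (SD, n = 5), so that the lowest basal library was well above the highest luminal one. This corresponded to a log2 fold change of -2.29 (SE 0.24, adjusted p = 1.05e-06). Per kilobase of the longest coding transcript, Hspa5 had the highest level of the 35 genes in both cell types, at 671 CPM per kb in luminal and 3280 CPM per kb in basal cells. Hsp90b1 (GRP94, the Hsp90 of the ER) was next in basal cells at 1430 CPM per kb, and in luminal cells, at 369 CPM per kb, it came after P4hb and Calr. It was at 1041 ± 183 CPM in luminal and 4040 ± 924 CPM in basal cells (SD, n = 5 each), with a log2 fold change of -1.96 (SE 0.20, adjusted p = 1.08e-06). Its exons share 632 bases with overlapping annotations, which could add reads.

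Hyou1 (GRP170), a nucleotide exchange factor for BiP, was at 309.8, 290.8, 229.0, 260.7 and 278.2 CPM in luminal and at 1689, 1280, 1633, 1880 and 1489 CPM in basal replicates 1 to 5. The groups were far apart, and the spread within each was small, with a log2 fold change of -2.54 (SE 0.16, adjusted p = 8.94e-09). Among the co-chaperones with a J domain, Dnajb11 (ERdj3) was at 46.4 to 57.5 CPM in luminal and 115.6 to 173.1 CPM in basal libraries, a log2 fold change of -1.42 (SE 0.14, adjusted p = 7.16e-07). Dnajc3 (p58IPK), which also restrains PERK, was at 192.6 to 243.0 CPM in luminal and 408.3 to 493.4 CPM in basal libraries, a log2 fold change of -1.08 (SE 0.13, adjusted p = 4.67e-06). Sdf2l1, a partner of Dnajb11, was at 54.0 to 185.9 CPM in luminal and 335.6 to 642.8 CPM in basal libraries, a log2 fold change of -1.87 (SE 0.28, adjusted p = 4.38e-05). Its luminal libraries were among the most scattered of the arm, yet the highest remained below every basal library.

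Manf, a small ER protein that binds BiP and can be secreted, was at 278.7 to 416.7 CPM in luminal and 884.7 to 1269 CPM in basal libraries, with a log2 fold change of -1.57 (SE 0.17, adjusted p = 1.33e-06). Its exons share 326 bases with overlapping genes. Creld2, an ER protein known to be induced by ER stress, was at 44.5, 83.3, 75.3, 115.8 and 66.1 CPM in luminal and at 223.2, 157.4, 218.0, 413.8 and 176.6 CPM in basal replicates 1 to 5. Basal replicate 4 stood apart from the other basal libraries, and all 5 were above the luminal range. Creld2 had a log2 fold change of -1.63 (SE 0.28, adjusted p = 0.000154).

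The lectin chaperones hold glycoproteins during folding. Calr (calreticulin) had a log2 fold change of -1.33 (SE 0.19, adjusted p = 2.28e-05) and Canx (calnexin) one of -1.08 (SE 0.14, adjusted p = 8.35e-06). Canx was among the least scattered genes, at 400.2 to 470.8 CPM in luminal and 838.5 to 1042 CPM in basal libraries.

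Of the protein disulfide isomerases, which form and rearrange disulfide bonds, Pdia4 (ERp72) differed most. It was at 198.7, 294.1, 194.8, 211.7 and 280.2 CPM in luminal and at 1548, 1227, 1750, 1925 and 1238 CPM in basal replicates 1 to 5. With a log2 fold change of -2.70 (SE 0.20, adjusted p = 3.27e-08), it had the largest difference of the arm. The other 3 had smaller differences. P4hb, the founding member of the family and a subunit of prolyl 4-hydroxylase, was at 1232, 2050, 1270, 1075 and 1122 CPM in luminal and at 2914, 2655, 3358, 3840 and 2430 CPM in basal replicates 1 to 5. Luminal replicate 2 lay closest to the basal range, with a log2 fold change of -1.17 (SE 0.21, adjusted p = 0.000243). Pdia3 (ERp57), the partner of the lectin chaperones, had a log2 fold change of -1.14 (SE 0.18, adjusted p = 6.49e-05) and Pdia6 (P5) one of -1.04 (SE 0.19, adjusted p = 0.000201).

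**Figure D3:**
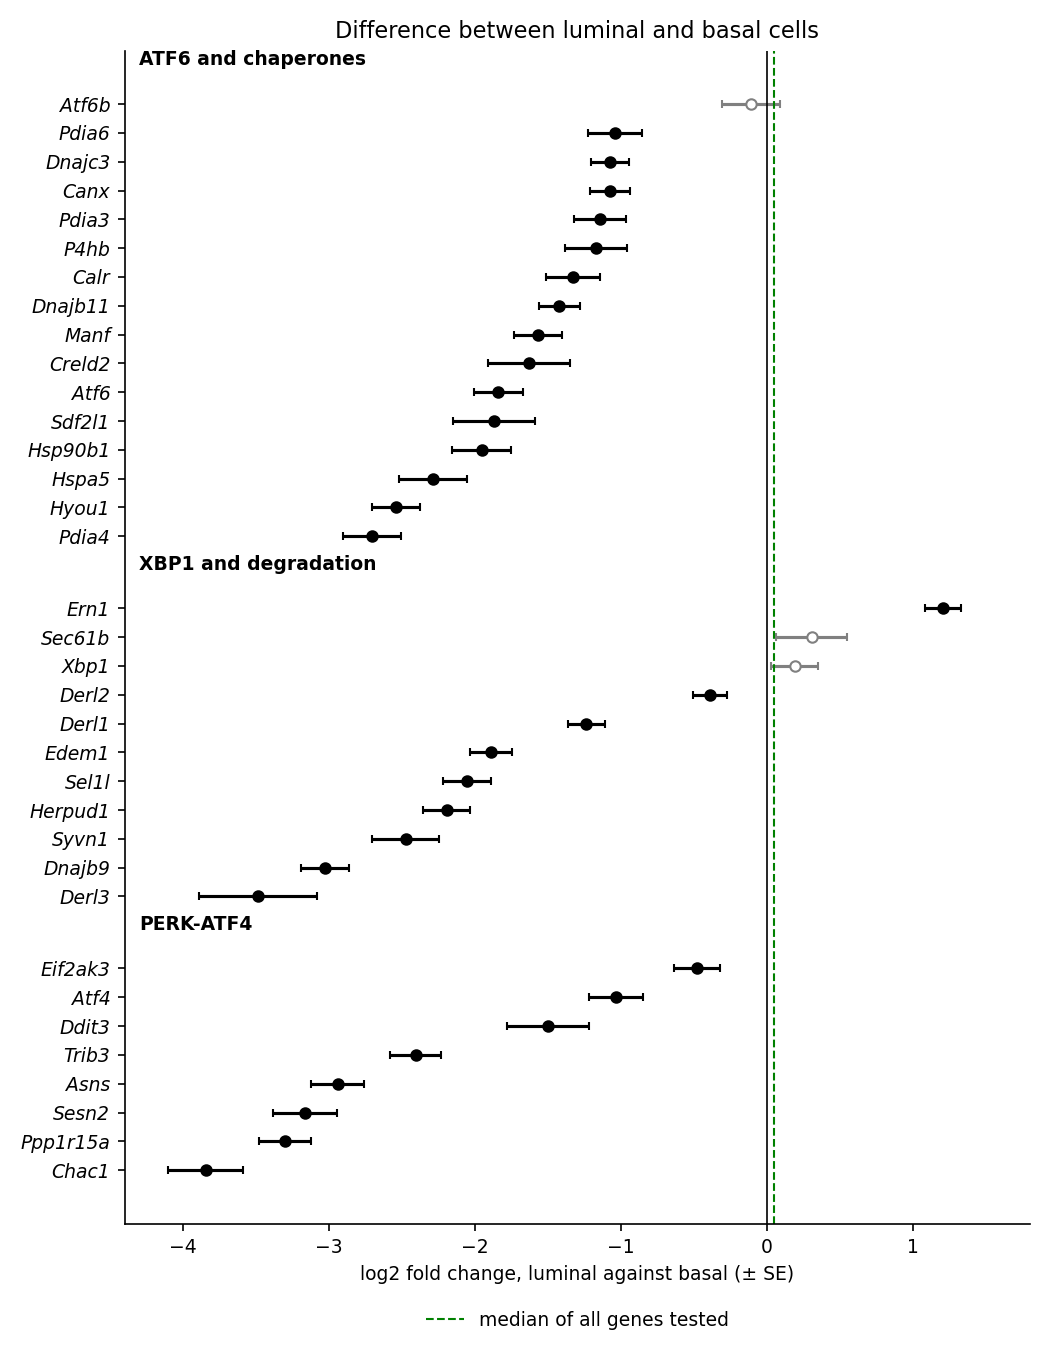
The log2 fold change of each gene, luminal against basal, with its standard error (horizontal axis), grouped by arm. Filled points were called by edgeR's quasi-likelihood test (adjusted p under 0.05), open grey points were not, and the dashed green line is the median of all genes tested (0.05). The chaperones lie between -2.70 and -1.04 apart from Atf6b, and the PERK-ATF4 genes reach -3.85.

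In the arm of XBP1 and ER-associated degradation, which returns misfolded proteins to the cytosol for breakdown, 8 of 11 genes were called higher in basal cells, 7 of them by at least 2-fold. One gene was called higher in luminal cells and 2 were not called. The median log2 fold change was -1.89. The arm took 0.117% to 0.128% of luminal and 0.255% to 0.296% of basal counts.

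The sensor of this arm differed in the direction opposite to its other called genes. Ern1, which encodes IRE1 alpha, was at 156.5, 114.3, 125.9, 130.5 and 157.9 CPM in luminal and at 56.8, 59.3, 62.3, 60.6 and 58.1 CPM in basal replicates 1 to 5. Each luminal library was above each basal library, and the basal libraries hardly varied (59.4 ± 2.15 CPM, SD, n = 5). Ern1 had a log2 fold change of 1.21 (SE 0.13, adjusted p = 1.27e-06), which was at least 1.14 under every alternative setting tried. Its target Xbp1 was at 409.7, 268.8, 292.3, 369.2 and 450.5 CPM in luminal and at 355.2, 298.2, 282.7, 323.6 and 309.9 CPM in basal replicates 1 to 5. The luminal libraries lay on both sides of the basal range. The log2 fold change of Xbp1 was 0.19 (SE 0.16, adjusted p = 0.317), although with library totals alone as scaling it was 0.37 and was called (adjusted p = 0.0419). Counts per gene do not separate the spliced from the unspliced Xbp1 transcript.

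Of the 11 genes, Derl3 had the largest difference. Derl3, a member of the derlin family of the retrotranslocation channel that is known from secretory cells, was at 2.69, 13.8, 9.20, 6.18 and 3.43 CPM in luminal and at 74.8, 60.2, 74.0, 131.9 and 58.3 CPM in basal replicates 1 to 5. The lowest luminal library held 43 counts of it, so it was detected in all 10 libraries. Its log2 fold change was -3.49 (SE 0.40, adjusted p = 3.4e-06). The related Derl1 had a log2 fold change of -1.24 (SE 0.13, adjusted p = 8.46e-07). Derl2, the third derlin, was at 49.1, 52.8, 54.8, 59.2 and 46.1 CPM in luminal and at 67.8, 69.0, 69.5, 70.6 and 66.5 CPM in basal replicates 1 to 5. The groups did not overlap, but the difference was small, with a log2 fold change of -0.39 (SE 0.12, adjusted p = 0.00879). This call was lost with upper-quartile factors (-0.27, adjusted p = 0.0616) and with library totals alone (-0.20, adjusted p = 0.173), and 231 exon bases of Derl2 overlap its neighbour Mis12.

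Dnajb9 (ERdj4), a co-chaperone of BiP that binds IRE1 and misfolded substrates, was at 58.9, 84.4, 68.1, 72.0 and 52.5 CPM in luminal and at 626.7, 490.5, 528.6, 575.2 and 521.2 CPM in basal replicates 1 to 5. The gap between the groups was several times the spread of either, with a log2 fold change of -3.03 (SE 0.16, adjusted p = 1.6e-09). The ubiquitin ligase of the channel, Syvn1 (HRD1), was at 40.0, 63.5, 46.0, 31.0 and 23.8 CPM in luminal and at 249.5, 233.5, 215.5, 252.2 and 188.3 CPM in basal replicates 1 to 5. It was more scattered in luminal than in basal libraries in relation to its mean, and its log2 fold change was -2.48 (SE 0.23, adjusted p = 3.27e-07). Its adaptor Sel1l had a log2 fold change of -2.05 (SE 0.16, adjusted p = 7.84e-08), and the membrane scaffold Herpud1 one of -2.20 (SE 0.16, adjusted p = 3.05e-08). Edem1, which marks misfolded glycoproteins by trimming mannose, was at 85.5 to 123.6 CPM in luminal and 344.1 to 438.5 CPM in basal libraries, a log2 fold change of -1.89 (SE 0.15, adjusted p = 5.26e-08). Sec61b, a subunit of the channel through which proteins enter the ER, was at 43.8, 79.7, 66.7, 103.8 and 45.8 CPM in luminal and at 56.4, 45.7, 52.1, 80.1 and 40.5 CPM in basal replicates 1 to 5. These ranges overlapped, and Sec61b had a log2 fold change of 0.31 (SE 0.24, adjusted p = 0.289).

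All 8 genes of PERK and ATF4 were called higher in basal cells, beside 31.2% of all genes tested. By at least 2-fold it was 7 of them, beside 19.1%. The median log2 fold change of the 8 genes was -2.67. They took 0.0679% to 0.0980% of luminal and 0.249% to 0.347% of basal counts. The difference was small for the sensor, intermediate for Atf4 and larger for most of the genes known as ATF4 targets.

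Eif2ak3 (PERK) was at 52.1, 51.9, 47.3, 46.9 and 32.2 CPM in luminal and at 76.9, 60.9, 58.6, 54.2 and 70.9 CPM in basal replicates 1 to 5. The highest luminal and the lowest basal library nearly met. Its log2 fold change was -0.48 (SE 0.16, adjusted p = 0.0154), which was no longer called with upper-quartile factors (-0.36, adjusted p = 0.0555) or library totals alone (-0.29, adjusted p = 0.139). Its exons share 485 bases with an overlapping annotation. Atf4, the transcription factor of the arm, was at 340.8, 463.6, 512.4, 605.9 and 564.6 CPM in luminal and at 1296, 871.9, 936.0, 914.4 and 1086 CPM in basal replicates 1 to 5. No basal library fell within the luminal range, and Atf4 had a log2 fold change of -1.04 (SE 0.18, adjusted p = 0.000192). Because ATF4 is controlled largely at translation, its transcript level is not a measure of the protein.

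The regulators induced with ATF4 were higher in basal cells. Ppp1r15a (GADD34), which directs the phosphatase that reverses eIF2 alpha phosphorylation, was at 70.9, 92.8, 78.5, 106.5 and 85.5 CPM in luminal and at 1062, 675.6, 817.2, 859.9 and 867.6 CPM in basal replicates 1 to 5. Every basal library exceeded the highest luminal library by a wide margin, with a log2 fold change of -3.30 (SE 0.18, adjusted p = 1.47e-09). Ddit3 (CHOP), a factor known for its part in cell death under lasting ER stress, was at 34.6, 114.7, 89.9, 129.3 and 70.4 CPM in luminal and at 262.5, 210.4, 236.2, 333.1 and 199.9 CPM in basal replicates 1 to 5. Luminal replicate 1 was far below the other luminal libraries. Ddit3 had a log2 fold change of -1.50 (SE 0.28, adjusted p = 0.000324), and its exons share 186 bases with overlapping annotations, among them the methionyl-tRNA synthetase gene on the opposite strand. Trib3, a pseudokinase that restrains ATF4 and CHOP, was at 29.6 to 52.9 CPM in luminal and 199.4 to 286.1 CPM in basal libraries, with a log2 fold change of -2.41 (SE 0.18, adjusted p = 3.21e-08).

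The metabolic genes differed more than Atf4 itself. Chac1, which breaks down glutathione, was at 6.13, 4.37, 2.21, 5.88 and 5.52 CPM in luminal and at 84.2, 59.3, 81.2, 53.1 and 68.3 CPM in basal replicates 1 to 5. Low but present in luminal cells, with at least 36 counts in each library, it had the largest difference of the 35 genes, a log2 fold change of -3.85 (SE 0.26, adjusted p = 1.22e-08). Asns, asparagine synthetase, was at 48.3, 38.3, 34.9, 40.9 and 54.1 CPM in luminal and at 456.1, 320.2, 293.3, 269.1 and 324.9 CPM in basal replicates 1 to 5. The groups were far apart, with a log2 fold change of -2.94 (SE 0.18, adjusted p = 6.46e-09). Sesn2 (sestrin 2), an inhibitor of the growth-promoting kinase complex mTORC1, was at 40.2, 24.7, 28.0, 23.3 and 38.9 CPM in luminal and at 373.9, 245.3, 266.7, 192.6 and 313.0 CPM in basal replicates 1 to 5. Its log2 fold change was -3.16 (SE 0.22, adjusted p = 1.88e-08), and no basal library came near the luminal range.

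Across the arms, the sensors did not share a direction. Atf6 was higher in basal cells by more than 2-fold, Eif2ak3 by a small margin, and Ern1 was higher in luminal cells. Of the transcription factors downstream, Atf4 was higher in basal cells, and Xbp1 was not called. Per kilobase of the longest coding transcript, the sensors were among the least abundant of the 35 genes in basal cells, with Ern1 the lowest at 8.55 CPM per kb, Atf6b at 12.9, Eif2ak3 at 14.3 and Atf6 at 25.2. In luminal cells Ern1 was at 19.7 CPM per kb, above Eif2ak3 at 10.2 and Atf6 at 7.02. Per kilobase, the order of Ern1, Eif2ak3 and Atf6 was thus reversed between the cell types. In CPM without division by length, Atf6 lay above Eif2ak3 in both, with means of 50.8 and 46.1 in luminal and 182.2 and 64.3 in basal cells. No test of levels between genes was made.

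The 11 genes with a printed ERSE or ERSE-II were all called higher in basal cells, with log2 fold changes from -3.49 (Derl3) to -1.04 (Pdia6). The 4 genes with a CARE ranged from -3.85 (Chac1) to -2.20 (Herpud1). The 17 genes with a window but none of these 3 motifs ranged from -3.30 (Ppp1r15a) to 1.21 (Ern1), with 13 called higher in basal cells and 1 in luminal cells, against 31.2% and 33.6% of all genes tested. Genes with and without a match in the window were among those with the largest differences. Among 89 other pathway genes with a window, listed below by function, 1 (Ero1b) held an ERSE, 0 an ERSE-II, 13 a CARE and 4 (Txndc5, Txndc11, Vcp and Ube2j1) the UPRE core.

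Within the basal group, the arms did not follow the same libraries. Basal replicate 4 had the highest level of its group for 15 of the 16 genes of the chaperone arm, with a median deviation of 0.35 on the log2 scale from the group mean of each gene. For the PERK-ATF4 arm it was basal replicate 1 that had the highest level, for 7 of 8 genes, with a median deviation of 0.32, and basal replicate 4 was the lowest for 4 of them. In the degradation arm basal replicate 4 was highest for 6 of 11 genes. Among luminal libraries, replicate 1 was the lowest for 7 of 16 chaperone genes and the highest for 4 of them, so no single library led the arm. Genes of 1 library share its depth and its scaling, so these counts are a description.

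**Figure D4:**
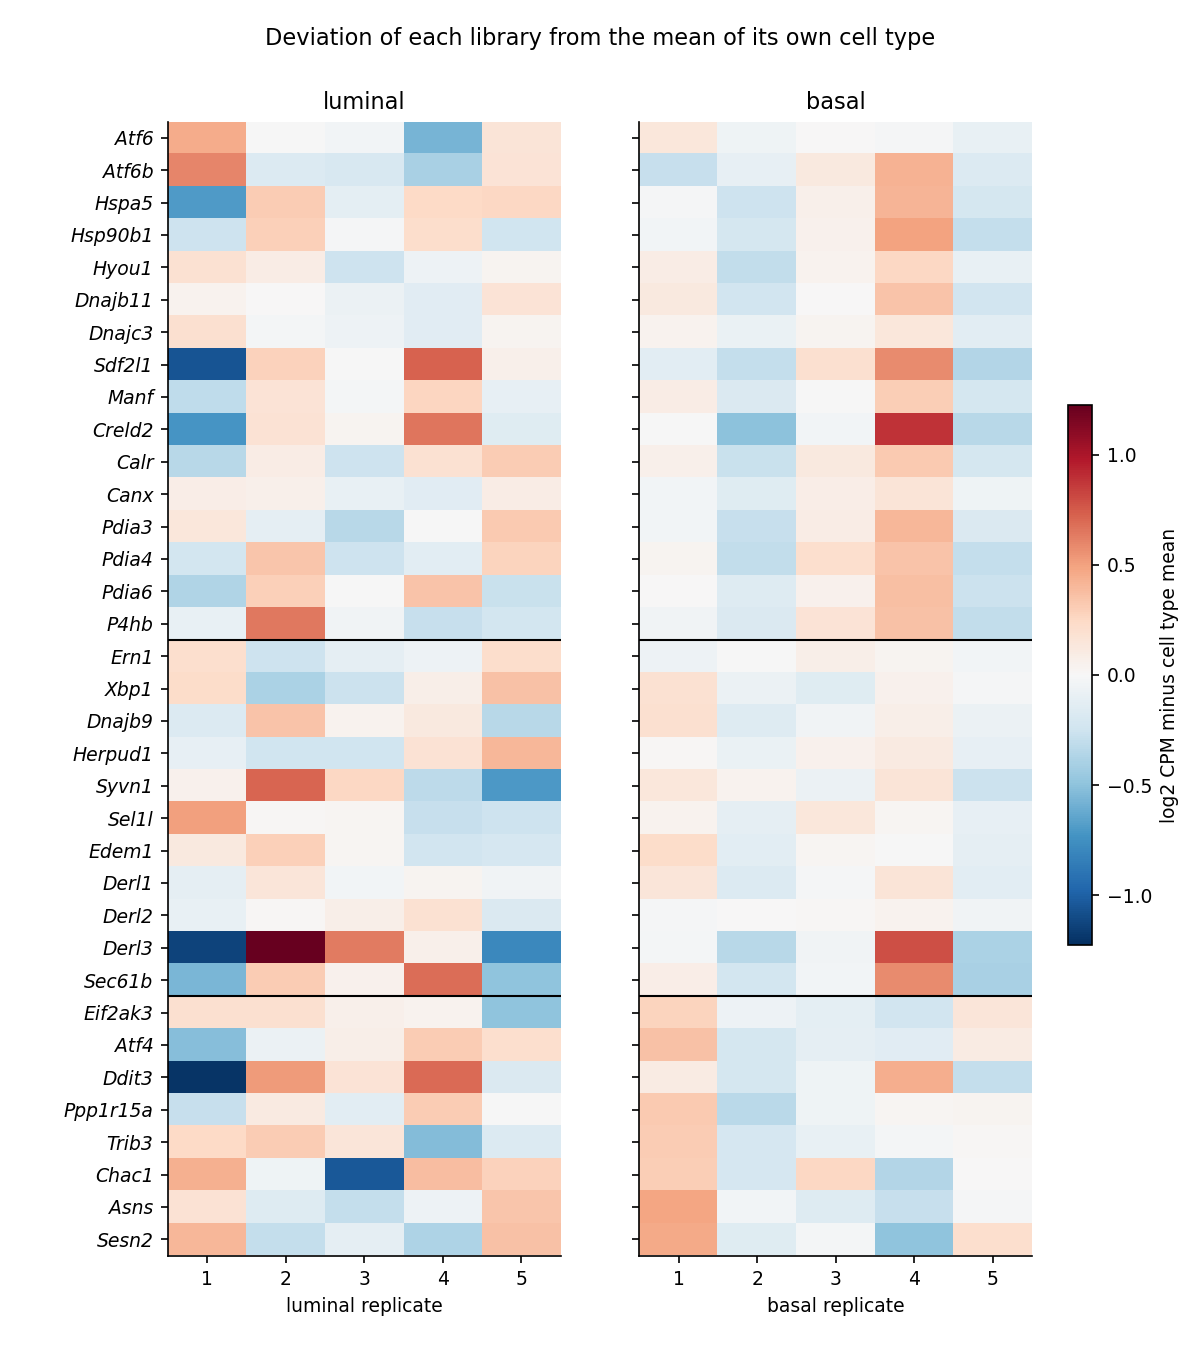
Deviation of each library (columns) from the mean of its own cell type for each gene (rows), on the log2 CPM scale, with red above and blue below the mean. Black lines part the 3 arms (chaperones above, degradation in the middle, PERK-ATF4 below). The column of basal replicate 4 is red for most chaperone genes, and that of basal replicate 1 is red for most PERK-ATF4 genes.

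Other genes of the same pathways were counted from lists by function. Of 110 listed, 109 were in the table and 108 were tested, and 67 of these were higher in basal cells, 15 in luminal cells and 26 were not called, beside 31.2% and 33.6% of all genes tested that were higher in basal and in luminal cells. The same shares apply to the counts of each list. Each list had fewer calls toward basal cells in proportion than the 35 genes, although this was not tested.

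Further folding enzymes and BiP cofactors were mixed, with 12 of 24 higher in basal cells, 4 higher in luminal cells and a median log2 fold change of -0.38. Ero1a, the oxidase that recharges protein disulfide isomerases, was at 661 ± 284 CPM in luminal and 7040 ± 418 CPM in basal cells (SD, n = 5 each), a log2 fold change of -3.41 (SE 0.29, adjusted p = 1.57e-07). Pdia5 was also higher in basal cells at -1.78 (SE 0.33, adjusted p = 0.000291). In the other direction, Sil1, a nucleotide exchange factor for BiP like Hyou1, had a log2 fold change of 1.17 (SE 0.16, adjusted p = 2.02e-05), and the saposin-like Cnpy2 one of 0.70 (SE 0.17, adjusted p = 0.00233). The exchange factors of BiP therefore differed in opposite directions.

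Of 10 tested regulators outside the 35 genes, 6 were higher in basal and 2 in luminal cells, with a median of -0.57. Mbtps2, the site-2 protease that releases ATF6, had a log2 fold change of -1.46 (SE 0.11, adjusted p = 5.24e-08), and Creb3l2, a membrane-bound factor cut like ATF6, one of -1.55 (SE 0.19, adjusted p = 6.1e-06). Traf2, an adaptor known to bind IRE1, was higher in luminal cells like Ern1, at 106 ± 10.4 CPM against 49.5 ± 1.71 CPM in basal cells (SD, n = 5 each), a log2 fold change of 1.10 (SE 0.12, adjusted p = 1.32e-06).

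Among 17 further degradation factors, 9 were higher in basal cells, 4 in luminal cells and the median was -0.42. With library totals alone as scaling, 5 in place of 9 were higher in basal cells. Selenos had a log2 fold change of -1.36 (SE 0.16, adjusted p = 3.23e-06). The lectin Os9, which hands glycoproteins to Sel1l, was higher in luminal cells at 1.16 (SE 0.17, adjusted p = 3.24e-05), as was Edem2 at 0.99 (SE 0.25, adjusted p = 0.00302), in contrast to Sel1l and Edem1. Of 21 genes of the translocon, signal peptide cleavage and N-glycosylation, 12 were higher in basal cells, 2 in luminal cells and the median was -0.56. The translocon-associated subunit Ssr1 had a log2 fold change of -1.64 (SE 0.14, adjusted p = 1.51e-07) and Ssr4, of the same complex, one of 0.75 (SE 0.18, adjusted p = 0.0022). Rpn1, of the oligosaccharyltransferase, was higher in basal cells at -1.48 (SE 0.16, adjusted p = 1.29e-06), and the signal peptidase subunit Spcs1 in luminal cells at 0.83 (SE 0.28, adjusted p = 0.0174).

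Further genes of the integrated stress response had a median log2 fold change of -1.61, with 19 of 25 higher in basal cells and 3 in luminal cells. Slc7a5, which takes up large neutral amino acids, was at 73.2 ± 36.5 CPM in luminal and 1570 ± 263 CPM in basal cells (SD, n = 5 each), a log2 fold change of -4.42 (SE 0.34, adjusted p = 5.24e-08). Mthfd2, of mitochondrial one-carbon metabolism, had a log2 fold change of -3.93 (SE 0.17, adjusted p = 3.24e-10). Exceptions were Nupr1, a stress-inducible chromatin protein, at 3.19 (SE 0.23, adjusted p = 2.89e-08) and the secreted glycoprotein Stc2 at 1.37 (SE 0.29, adjusted p = 0.000753), both higher in luminal cells. Of 11 cytosolic aminoacyl-tRNA synthetases, many of them known as ATF4 targets, 9 were higher in basal cells, all 9 by at least 2-fold, and the other two were not called, with a median of -1.91. Iars1 was at -2.64 (SE 0.19, adjusted p = 2.62e-08) and Aars1 at -2.51 (SE 0.18, adjusted p = 2.6e-08).

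**Figure D5:**
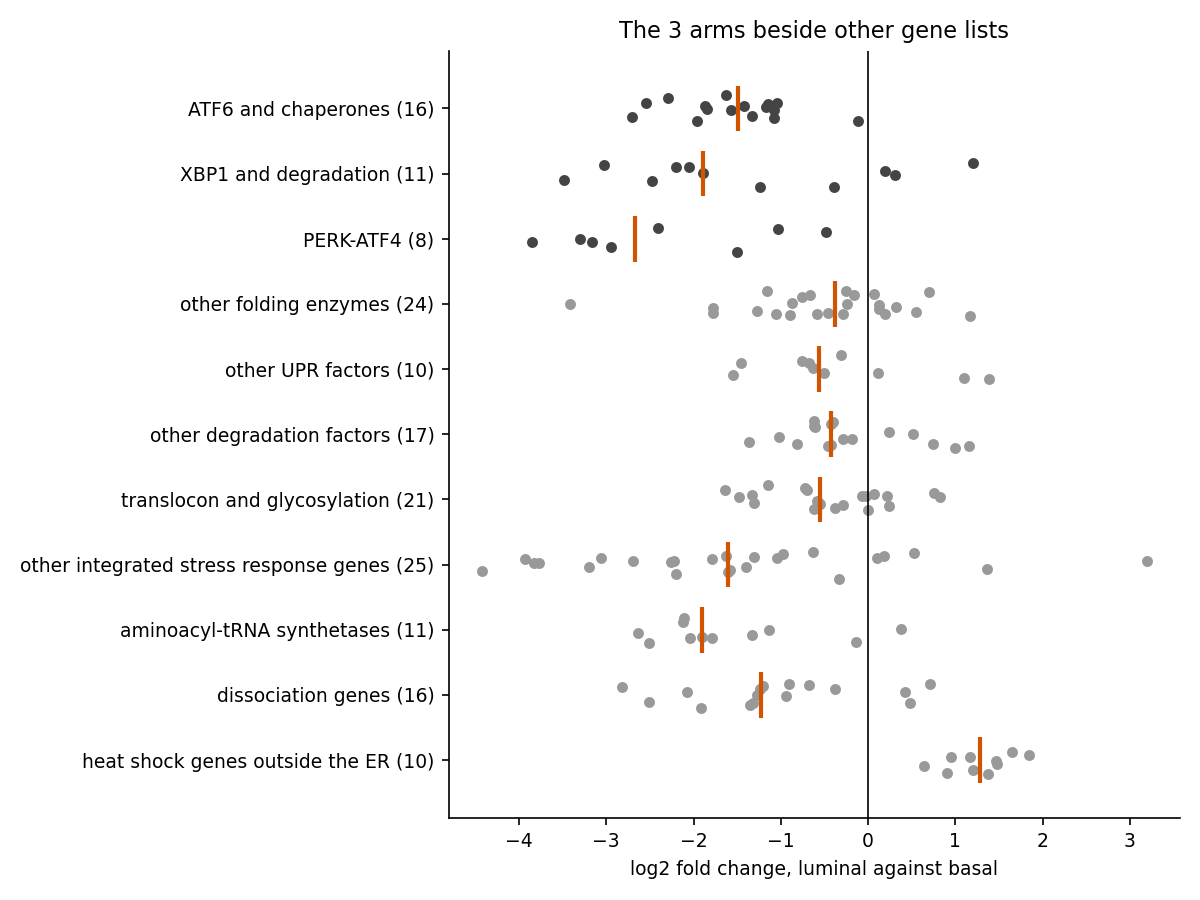
The log2 fold change of each tested gene, luminal against basal (horizontal axis), in the 3 arms (dark points) and in other lists (grey points), with the number tested in brackets. Vertical orange bars are medians, and points are spread vertically only to part them. The medians of the PERK-ATF4 arm (-2.67) and of the aminoacyl-tRNA synthetases (-1.91) lie to the left, and that of the heat shock genes outside the ER (1.29) to the right.

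Other measures moved with the comparison. Their counts stand beside 31.2% of all genes tested that were higher in basal and 33.6% that were higher in luminal cells. Of 16 immediate-early genes known to be induced by tissue dissociation, such as Fos, Jun and Nr4a1, 13 were higher in basal and 2 in luminal cells, with a median log2 fold change of -1.22, and each was detected. They summed to 3980 to 4450 CPM in luminal and 5680 to 9770 CPM in basal libraries, the highest being basal replicate 1, which also led the PERK-ATF4 genes. Their part in the differences of the 3 arms was not tested. All 10 heat shock genes of the cytosol and mitochondria were higher in luminal cells, with a median of 1.29 and sums of 9550 to 12800 CPM in luminal and 4080 to 6240 CPM in basal libraries. Of 9 genes for milk and secreted products, 4 passed the filter and 3 of these were higher in luminal cells. Among their defining markers Wap had 0 counts in all 10 libraries, Csn1s1 and Csn2 were at or under 0.825 CPM in each, and Csn3 was at 413 to 1200 CPM in luminal and 1.5 to 4.43 CPM in basal libraries.

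Markers of cells outside the epithelium were low. Of 9 plasma and B cell markers, 7 were in the table and 1 was tested. Jchain, Tnfrsf17, Cd79a, Cd79b and Ms4a1 were at or under 0.687 CPM in each library. Pou2af1, which was not tested, was at 0 to 0.444 CPM in luminal and 0.374 to 5.57 CPM in basal libraries. Mzb1, which is itself an ER protein of plasma cells, differed the other way, at 19.5 to 37.5 CPM in luminal and 1.93 to 3.27 CPM in basal libraries. The 5 leukocyte markers summed to 4.13 to 11.3 CPM in luminal and 12.2 to 34.4 CPM in basal libraries, with Cd3e at 0 and Ptprc at no more than 0.381 CPM. Of those tested, Cd74 was higher in basal cells (2.62 ± 1.19 CPM in luminal, 20.7 ± 7.89 CPM in basal, SD, n = 5 each), whereas Cd52 and Lyz2 were higher in luminal cells, with log2 fold changes of 2.03 and 1.69. The 4 endothelial markers summed to 1.69 to 4.06 CPM in luminal and 6.00 to 13.1 CPM in basal libraries. Kdr was at 0 to 0.0613 CPM in luminal and 0 to 0.955 CPM in basal libraries, and Cdh5 was higher in basal cells (0.217 ± 0.167 CPM in luminal, 4.58 ± 1.48 CPM in basal, SD, n = 5 each). The 5 fibroblast markers summed to 23.7 to 111 CPM in luminal and 25.6 to 41.1 CPM in basal libraries, with none at 0 in all libraries. Dcn was higher in luminal cells (38.3 ± 33.4 against 12.0 ± 1.43 CPM, SD, n = 5 each), with 95.1 CPM in luminal replicate 1, and Pdgfra was higher in basal cells (5.82 ± 2.51 in luminal against 12.4 ± 3.97 CPM, SD, n = 5 each). The part of such cells in the differences of the 3 arms was not tested.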

How the data were processed

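RNA-seq counts per gene were analysed for 5 luminal and 5 basal libraries. The authors deposited raw whole-number counts with NCBI Entrez identifiers. The submitters' processing notes name cutadapt 4.2, Bowtie2 2.3.5.1 and the builds mm10 and hg19. The study describes single-end, poly(A)-selected libraries but fewer replicates than here, so these steps were assumed to hold. The counting tool, annotation and handling of strand are not given in the sources used here, and Bowtie2 does not align across splice junctions, so genes with overlapping neighbours or short exons are uncertain.

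Of 24594 genes, 24570 received a symbol from RefSeq (GRCm38.p6). The filter filterByExpr of edgeR 4.0.16 (R 4.3.3; minimum count 10, minimum total 15) left 14609 genes, tested with TMM scaling and the quasi-likelihood test, with cell type as the only term. Each SE was computed as the absolute log2 fold change over the square root of F. Library totals were 13203146 to 17998165 counts, and the 5 libraries per cell type set the precision of each comparison. Alternatives were DESeq2 1.42.0 (size factors or Wald test), upper-quartile factors, library totals, no filter, at least 10 counts in every library, limma voom (limma 3.58.1), a 1.5-fold glmTreat test, a replicate block and leaving out each library.

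The members and lists were chosen with earlier results of these data known. All 35 members are named. From each further pathway list, the 2 largest changes in each direction among called genes whose higher group averaged 10 CPM or more are named, except 1 gene that is not reported here. Marker, dissociation, heat shock and milk lists are given as counts and sums, with defining markers named.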

Additional observations from a re-analysis of the deposited data

Results flagged for a closer look

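Within groups of 5 libraries, 4 values of the 35 genes lay apart from the rest of their group by Dixon's criterion. As 70 groups were examined and about 1 in 20 is expected by chance, about 3.5 such values would be expected. Creld2 was at 413.8 CPM in basal replicate 4, against 157.4 to 223.2 CPM in the other basal libraries. Derl3 was at 131.9 CPM in the same library, against 58.3 to 74.8 CPM in the others. In luminal replicate 2, P4hb reached 2050 CPM, while the remaining luminal libraries held 1075 to 1270 CPM. In luminal replicate 5, Eif2ak3 was low at 32.2 CPM, while the remaining ones held 46.9 to 52.1 CPM. Both Creld2 and Derl3 were high in the library that led most of the chaperone genes, and the cause was not tested.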

How the results depend on the processing

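Of 630 single-gene values under the alternatives, 622 kept direction and side of the threshold. The 1.5-fold glmTreat test is not among these values, since it was used for counts only. With it, 29 of the 35 genes were higher in basal cells (15 chaperone, 7 degradation and 7 PERK-ATF4 genes) and 1 in luminal cells. Of all 14609 genes tested, 3003 and 3162 were then called in these directions. Atf6b, which was not called, changed sign under upper-quartile factors (0.00548), under library totals (0.0765) and when basal replicate 4 was left out (range over left-out libraries -0.273 to 0.00232). Derl2 and Eif2ak3 lost their calls under both of these scalings, and Xbp1 was called with library totals, so that 2 of the 35 genes, both in the degradation arm, were then higher in luminal cells. Those scalings shifted the median log2 fold change of all genes by 0.12 and 0.19. Of 440 counts and medians, 425 stayed within 1.5 times or the spread. The median of the 35 genes was -1.50 under upper-quartile factors, -1.44 under library totals and from -1.76 to -1.48 when each library was left out, that of the chaperones -1.31 with library totals, that of the degradation arm -1.77 and -1.69, and that of PERK-ATF4 -2.48 with library totals. With library totals 5 further degradation factors, in place of 9, were higher in basal cells and 1 synthetase, in place of 0, in luminal cells. Leaving out libraries gave 0 to 1 synthetases (1 without luminal replicate 2) and 1 to 3 translocon genes (1 without luminal replicate 4) higher in luminal cells. The cause was not tested. Same-numbered luminal and basal libraries share a number in their descriptions, which the labels do not explain. Deviations of same-numbered libraries correlated at -0.134 to 0.252 (mean 0.0442, against -0.00718 for other pairs), and 3 of 10 libraries correlated best with their own number. With the number as a replicate block, 31 genes remained called higher in basal cells and 1 in luminal cells, and the block changed no call of the 35 genes. The medians were then -1.61 for all 35 genes and -1.49, -1.90 and -2.68 by arm. In the further lists, the block left 2 integrated stress response genes, in place of 3, higher in luminal cells. It also left 3 folding enzymes, in place of 4, higher in luminal cells. For the further degradation factors, 10 in place of 9 were higher in basal cells.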
